A study of Arabidopsis thaliana with 18 samples.

Results

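Cambium was compared with procambium in roots of Arabidopsis thaliana (thale cress) that had been given the synthetic cytokinin benzylaminopurine, BAP. The arrays were chosen by their titles: 3 arrays of cytokinin treated cambium and 3 of cytokinin treated procambium, 6 of the 18 arrays in the series. All are Affymetrix ATH1 arrays, each with 22746 probe sets (groups of short oligonucleotides that report a transcript) besides 64 control sets. The remaining arrays hold BAP-treated transition cambium (3 arrays), untreated cambium (3), untreated transition cambium (2), untreated procambium (2) and cells sorted on another cytokinin reporter, ARR5::GFP (2). The ARR5::GFP cells came from 6-day-old seedlings without BAP, and all other arrays from 8-day-old seedlings.

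Every array of cambium, transition cambium and procambium came from wild type Columbia seedlings carrying ARR15::GFP, an ER-localized green fluorescent protein under the control of the cytokinin response gene ARR15. The seedlings were 8 days old in both treatments. The treated ones spent 6 days on standard medium and then 48 h on medium with 100 nM BAP, and the untreated ones received no BAP. About 200 roots were cut into segments of about 1 cm; the basal segment gave the cambium samples, the middle segment the transition cambium and the apical segment the procambium. Cell walls were digested, fluorescent protoplasts were sorted, and their RNA was amplified before labelling. The name of a zone therefore stands for a position along the root together with expression of a cytokinin-responsive reporter, and each array is a pool over many roots. The labels call the arrays biological replicates and do not say which cambium and procambium arrays came from the same roots.

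Procambium is the narrow strand of undifferentiated cells between the phloem and the xylem of a young root, and in older, basal parts of the root it becomes the vascular cambium, a lateral meristem whose divisions thicken the organ. Peptides of the TDIF class, which in Arabidopsis are made from the CLE41 and CLE44 genes in the phloem, keep these cells dividing and undifferentiated. Cytokinin promotes cambial division, and the type-A response regulators, ARR15 among them, are switched on by the hormone and dampen its signal.

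Signals are on a log2 scale, where 1 unit is a change by a factor of 2, and the dimmest probe sets of each array lie at 2.17. A level of 5 was taken as the lowest that counts as measured, and the 13202 probe sets that reached it on at least 2 of the 16 ARR15::GFP arrays were tested with limma, with p-values adjusted by the Benjamini-Hochberg method over all of them. A probe set was called where the adjusted p was below 0.05. A fold is given as "at least" where no array of the dimmer zone reached 5, with 5 put in place of its values, and as fitted otherwise. Between 48.5% and 49.5% of probe sets reached 5 on each of the 6 arrays. Across the tested probe sets the BAP cambium arrays correlated with each other at r = 0.963 to 0.970, the BAP procambium arrays at 0.918 to 0.975, and arrays of different zones at 0.717 to 0.802. BAP procambium replicate 1 stood somewhat apart, at r = 0.918 and 0.928 with the other arrays of its group, which correlated with each other at 0.975. The counts of plastid-encoded genes, nuclear photosynthesis genes and UDP-glycosyltransferases are given with and without this array.

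With BAP, 4099 of the 13202 probe sets (31%) were called between the zones, 2155 higher in cambium (16.3%) and 1944 lower (14.7%). The arrays of the zones did not overlap for 46.2% of all probe sets, with cambium above for 24.7% and below for 21.5%. The median difference among the calls was 1.77 for those higher in cambium and -1.83 for those lower, and 412 and 480 calls respectively exceeded 3 on the log2 scale. The call held without any 1 of the 6 arrays for 1397 of the higher calls (64.8%) and 1269 of the lower ones (65.3%). The transition cambium from the middle of the same kind of root lay closer to cambium than to procambium for 1890 of the higher calls (87.7%) and for 1696 of the lower calls (87.2%). These shares were not computed over the probe sets not called. Across all tested probe sets the BAP transition arrays correlated at a mean r of 0.935 with BAP cambium and 0.807 with BAP procambium. In sorted bulk samples of this kind, fewer cells of a type and less RNA per cell cannot be told apart.

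The 12 named genes with the largest increase in cambium encode small secreted peptides and lectins, enzymes of secondary metabolism, wall proteins and signalling proteins. Among those with at least 1 procambium array at 5 or more, UGT78D1 (AT1G30530), which attaches rhamnose to flavonols, had the widest fitted difference. Its cambium arrays read 10.03, 10.25 and 9.75 and its procambium arrays 5.17, 2.91 and 2.91. All 3 cambium arrays were bright and only procambium replicate 1 reached 5. The fitted log2 difference was 6.35 (SE 0.47, limma adjusted p = 3.65e-07). With procambium values below 5 raised to 5, PDF2.1 ranked first, at 5.46, and UGT78D1 had 4.95. ATMPK13 (AT1G07880), a mitogen-activated protein kinase, read 9.27, 9.17 and 7.99 in cambium against 2.58, 2.17 and 2.19 in procambium, so it was not measured above the floor on any procambium array. CCR2 (AT1G80820), a cinnamoyl-CoA reductase of the phenylpropanoid pathway, was bright in cambium at 11.04, 11.86 and 11.11 and intermediate in procambium at 7.60, 6.46 and 6.03. Its groups did not overlap, as the naming rule required for all 12 genes. CCR2 was 24.9-fold higher in cambium (limma adjusted p = 9.72e-07).

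The aspartic protease NANA (AT3G12700) read 10.12, 10.12 and 9.89 in cambium and 4.88, 5.15 and 4.71 in procambium. The 6 values formed 2 tight and separate groups, 35.1-fold apart (adjusted p = 1.46e-06). NAMT1 (AT5G04370), which methylates nicotinate, was at least 11.7-fold higher in cambium. The microtubule-associated SPIRAL1-like gene SP1L2 (AT1G69230) read 10.07, 9.85 and 10.22 in cambium against 6.19, 2.17 and 4.72, a wide spread within procambium that did not reach the cambium values. The remaining genes of this set were PDF2.1, HOS3-1, EXPB3, EXLA3, GH9B8 and JAL22, and for all 12 the adjusted p was 0.000404 or lower. All 12 calls held without any 1 of the 6 arrays, and the transition cambium was closer to cambium than to procambium for each of them. Its mean lay between the zones for 5 of the 12 genes. For others it exceeded the cambium mean, as for EXPB3, at 11.88 against 10.67.

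The 12 named genes with the largest decrease in cambium had lower signals on every cambium array than on any procambium array, as the rule for naming them required. The largest difference was that of hemb2 (AT1G44318), which encodes a form of the tetrapyrrole enzyme 5-aminolevulinate dehydratase: 2.83, 2.58 and 3.03 in cambium against 11.30, 11.04 and 11.51 in procambium, at least 77.9-fold. PPDK (AT4G15530), pyruvate orthophosphate dikinase, read 4.46, 6.32 and 5.69 in cambium and 10.69, 11.62 and 11.88 in procambium. The groups did not overlap, and the spread was wider within cambium. The fitted difference was -5.91 (SE 0.75, adjusted p = 3.13e-05).

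UPB1 (AT2G47270), a bHLH transcription factor that sets the balance of reactive oxygen species where root cells stop dividing, read 6.57, 5.03 and 6.08 in cambium and 10.83, 10.05 and 10.54 in procambium, 23.9-fold apart. AGL21 (AT4G37940), a MADS-box factor of lateral root growth, read 4.92, 3.87 and 3.94 against 9.04, 8.50 and 8.27 and was at least 12.1-fold lower in cambium. The arrays of the zones were separate for these transcription factors too, as the naming rule required. JRG21 (AT3G55970), an oxygenase that inactivates jasmonate, was at least 21.6-fold lower, and CYP718 (AT2G42850), a cytochrome P450, had a fitted difference of -5.89 (SE 1.01, adjusted p = 0.00042) with 2 of the 3 cambium arrays above 5. The set was completed by sks15, sks16, SCPL34, GH9B6, UGT76B1 and TBL41. All 12 calls held without any 1 array, and all 12 transition means lay between those of the zones, 9 of them closer to cambium. Single transition arrays varied widely for some of these genes, as for hemb2, at 8.81, 7.96 and 4.06.

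**Figure D1:**
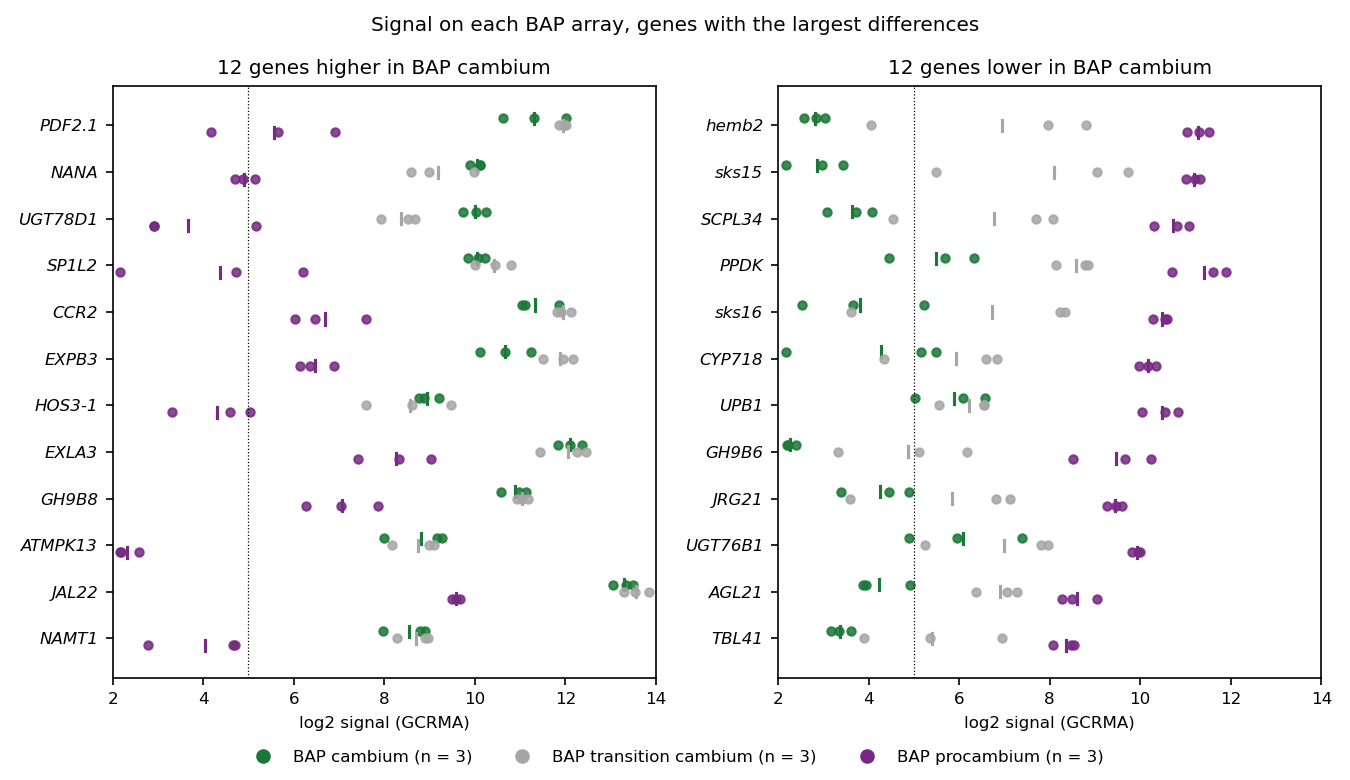
Log2 signal on each BAP array for the 12 named genes most increased (left) and the 12 most decreased (right) in BAP cambium against BAP procambium; points are arrays, vertical ticks are group means of 3 arrays, and the dotted line is the level of 5. By the naming rule, no cambium point overlaps a procambium point for any of the 24 genes. The transition cambium means of the genes on the right lie between the zones, while single transition arrays of several genes fall among the cambium arrays. On the left, the transition means of 5 of the 12 genes lie between the zones.

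Among genes that carry only a locus code on the array annotation but an older name in the reference table, 3 qualified as higher in cambium and 5 were taken as lower. AT1G74470, the geranylgeranyl reductase that supplies the side chain of chlorophyll, read 8.93, 9.37 and 8.43 in cambium and 6.81, 6.05 and 6.83 in procambium, 5.09-fold higher (adjusted p = 0.00162). AT5G48570, the heat-inducible immunophilin FKBP65 (also ROF2), was 3.80-fold higher, and AT1G13030, coilin of the Cajal body, 2.59-fold higher. On the procambium side stood the peroxidase PRX72 (AT5G66390), which acts in lignification, with a fitted difference of -5.88 (SE 1.42), and F6'H1 (AT3G13610), which makes the coumarin scopoletin, at least 8.85-fold lower. The lysine-degrading enzyme LKR/SDH (AT4G33150) was 3.77-fold lower in cambium and LEA27 (AT2G46140), a late embryogenesis abundant protein, 3.51-fold lower. PRX71 (AT5G64120) read 7.62, 9.01 and 7.06 in cambium and 9.57, 10.41 and 10.31 in procambium, with adjusted p = 0.0287. Its call was lost without cambium replicate 1 or 3 or without procambium replicate 2 or 3, with adjusted p from 0.0788 to 0.117.

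Of 34 regulators of the cambium and procambium, 6 had a probe set assigned to 1 gene and 5 reached the level for testing. The list holds regulators of both zones, so it is no check of the zone labels. The ligand genes were higher in cambium. CLE41 (AT3G24770) read 8.60, 8.87 and 8.39 in cambium and 7.39, 6.24 and 6.55 in procambium, and CLE44 (AT4G13195) read 6.71, 7.01 and 6.70 against 2.25, 2.18 and 2.25. Neither gene's groups overlapped, and CLE44 was not measured in procambium. MOL1 (AT5G51350), a leucine-rich repeat kinase known to hold back stem cambium, read 9.85, 9.63 and 9.15 in cambium and 7.28, 7.66 and 7.63 in procambium. PHV (AT1G30490), a homeodomain-leucine zipper factor of vascular patterning, read 8.60, 8.53 and 8.17 against 6.77, 6.37 and 5.44. LHW, the bHLH partner that drives divisions of young vascular cells, was the member not called, with a difference of 0.25 and 8.18 as its procambium mean. The calls of CLE41, CLE44, MOL1 and PHV held without any 1 array.

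The other receptor-like kinases of development differed in direction. BRL1 (AT1G55610), a vascular brassinosteroid receptor, read 6.57, 6.71 and 6.11 in cambium and 2.51 on each procambium array, at least 2.76-fold higher (adjusted p = 8.69e-06). PXL1 (AT1G08590), a relative of the TDIF receptor PXY, was lower in cambium by fit, at -1.46 (SE 0.49, adjusted p = 0.0334). Its replicate 1 read 5.23 in both zones, so its groups touched, and the call was lost without replicate 2 or 3 of either zone, with adjusted p from 0.0791 to 0.146. PXL2 (AT4G28650) was not called, with a difference of -1.51 (SE 0.70, adjusted p = 0.118). The receptor gene PXY itself was not analysed here.

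**Figure D2:**
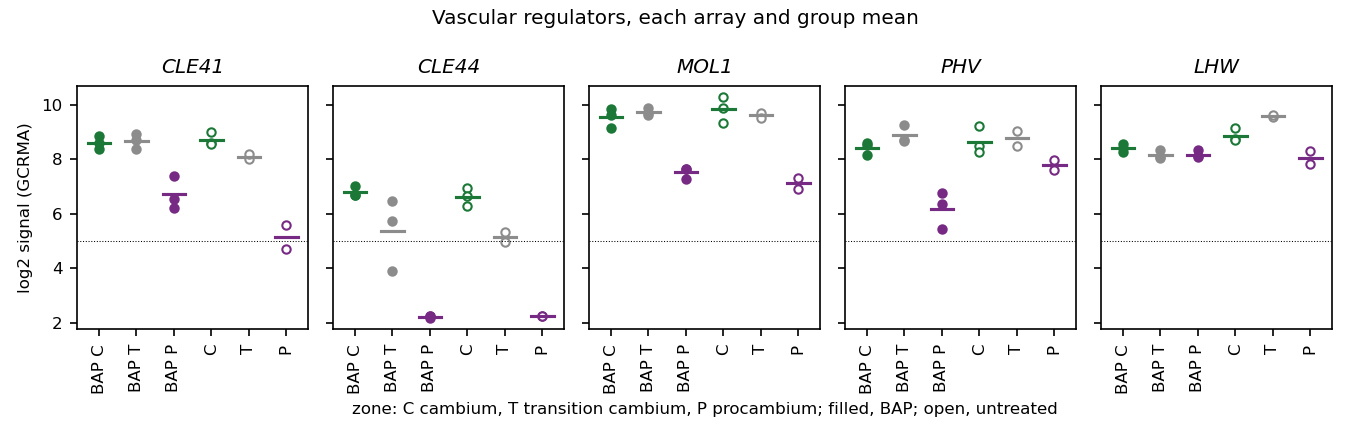
Log2 signal of CLE41, CLE44, MOL1, PHV and LHW on every array of the 3 zones, filled with BAP and open without, with the group mean as a line and the level of 5 dotted. CLE41, CLE44, MOL1 and PHV are higher on all 3 BAP cambium arrays than on any BAP procambium array, and LHW is level.

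ARR15, whose reporter was used for sorting, was measured in both zones under BAP. It read 6.56, 6.37 and 6.83 in cambium and 7.66, 6.24 and 6.76 in procambium, and the groups overlapped with a difference of -0.30 (SE 0.38, adjusted p = 0.596). Without BAP its means were 2.66 and 2.72, both below 5. RR16 (AT2G40670), another type-A response regulator, was 5.37, 4.61 and 5.10 in cambium and 6.60, 6.48 and 7.44 in procambium. It was therefore lower in cambium, by a fitted difference of -1.81 (SE 0.33, adjusted p = 0.000696), with every procambium array above every cambium array. The cytokinin N-glucosyltransferases, which inactivate the hormone, differed by 0.95 for UGT76C1 (adjusted p = 0.0383) and by -0.34 for UGT76C2 (adjusted p = 0.414). The call of UGT76C1 held without cambium replicate 3, and without each of the other 5 arrays its adjusted p was 0.0696 to 0.16.

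Of 8 auxin response and conjugation genes, 3 were higher in cambium and 2 lower, against 16.3% and 14.7% of all probe sets. The amido synthetase GH3.3 (AT2G23170), which couples auxin to amino acids, read 8.39, 9.45 and 9.20 in cambium and 5.18, 6.80 and 5.57 in procambium, 8.98-fold higher. GH3.1 (AT2G14960) read 5.28, 6.82 and 6.83 in cambium and 2.92, 3.16 and 2.92 in procambium, at least 2.48-fold higher. The transition cambium did not share the cambium level of GH3.3: its mean of 5.89 lay at the procambium mean of 5.85. IAA18, an Aux/IAA repressor, was 3.43-fold higher in cambium. LBD16 (AT2G42430), which acts at lateral root founding, read 2.85, 3.47 and 2.83 in cambium against 6.71, 5.02 and 5.33 in procambium and was at least 1.61-fold lower (adjusted p = 0.000366). IAA30 was lower by 1.08 at adjusted p = 0.0457, a call that held only without procambium replicate 3; without each other array its adjusted p was 0.0677 to 0.172.

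Cell division genes were described in 3 lists, for mitosis, tubulins, and DNA replication with histones. Of 6 mitosis and cytokinesis genes 4 were higher in cambium and none lower, and of 7 tubulin genes 4 were higher and 1 lower. The shares over all probe sets were 16.3% higher and 14.7% lower. KINESIN-12B (AT3G23670), a motor of the cell plate, read 7.41, 7.39 and 7.15 in cambium and 4.04, 4.75 and 4.17 in procambium, at least 4.97-fold higher. The spindle checkpoint gene BUB3.1 (AT3G19590) read 9.63, 9.72 and 9.49 against 7.94, 7.25 and 8.19, 3.53-fold higher. The Aurora kinase AUR1 (AT4G32830), which acts on the spindle and the cell plate, was 3.08-fold higher at 8.99, 8.53 and 8.51 against 7.32, 6.64 and 7.20. These calls held without any 1 array, whereas AUR2, 3.14-fold higher, kept its call only without procambium replicate 1 (adjusted p 0.0857 to 0.164 without each other array).

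Among the tubulins, TUB7 (AT2G29550) was 3.17-fold higher in cambium at 10.26, 10.65 and 10.35 against 9.39, 8.48 and 8.40, and TUA1 was 2.30-fold higher. TUB1 went the other way, at 9.25, 8.28 and 8.60 in cambium and 10.74, 11.18 and 10.41 in procambium. Its groups did not overlap, but the call was lost without cambium replicate 2 or 3 or procambium replicate 1 or 2 (adjusted p 0.0518 to 0.0866), and the tubulin counts were 2 higher and none lower without cambium replicate 2. Of 7 replication and histone genes only the histone HTB2 was called, 2.20-fold higher in cambium, and that call was lost without cambium replicate 1 (adjusted p = 0.0746) or procambium replicate 2 (adjusted p = 0.0672). Differences of the other 6, which include HTB1, HTB4 and the polymerase subunits POLA3 and POLD3, ran from -0.43 to 0.81.

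Expansins, which loosen cell walls, were spread to both sides. Of 12 tested, 6 were higher in cambium and 3 lower, against 16.3% and 14.7% of all probe sets. EXPB3 (AT4G28250) was 18.5-fold higher at 10.11, 11.23 and 10.67 against 6.36, 6.15 and 6.88. EXPA4 was 9.21-fold higher, with 2 of 3 procambium arrays above 5, and EXPA15 5.45-fold higher. The neighbouring genes EXLA3 and EXLA1 were both higher in cambium, by 14.4-fold and 1.99-fold. EXPA9 (AT5G02260) stood out on the other side, at 4.24, 3.09 and 3.58 in cambium and 7.71, 8.55 and 8.56 in procambium, at least 9.67-fold lower. EXPB1 was also lower by fit, at -1.80 (adjusted p = 0.0053), but only 1 procambium array and no cambium array reached 5, so no fold is given.

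Family 9 glycosyl hydrolases, endoglucanases that act on cellulose, split as sharply. Of 7 members 3 were higher in cambium and 2 lower, against 16.3% and 14.7% of all probe sets. GH9B8 (AT2G32990) read 10.98, 11.13 and 10.57 in cambium against 6.27, 7.04 and 7.87 in procambium, and GH9B13 was 2.66-fold higher. GH9B6 (AT1G23210) read 2.20, 2.21 and 2.39 in cambium and 8.51, 9.66 and 10.23 in procambium, and GH9C1 (AT1G48930) read 2.20, 2.17 and 2.78 against 8.50, 6.90 and 7.88. GH9C1 was at least 6.78-fold lower, and neither gene was measured on any cambium array. Among 8 xyloglucan-modifying genes, XTH32 was at least 3.55-fold higher in cambium at 6.50, 7.28 and 6.70 against 3.09, 2.36 and 3.09, and EXGT-A3 was 1.88-fold lower. The pectin methylesterase gene ATPMEPCRB was 7.47-fold higher in cambium.

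The TBL genes, whose known members acetylate wall polymers, had 4 of 17 members higher and 4 lower (23.5% each). Over all probe sets the shares were 16.3% and 14.7%. TBL36 (AT3G54260) was 8.06-fold higher, and TBL45 was 5.99-fold higher. TBL21 (AT5G15890) was the clearest on the other side, at 2.45, 2.17 and 2.57 in cambium and 7.17, 7.61 and 7.44 in procambium. TBL21 was at least 5.30-fold lower, and TBL41 at least 10.3-fold lower. Of 9 cellulose synthase-like and wall glycosyltransferase genes, IRX15-L, which acts in xylan synthesis, was at least 4.75-fold higher in cambium and GAUT15, a pectin galacturonosyltransferase-family gene, at least 4.39-fold higher. CSLA03, a glucomannan synthase-family gene, was 3.03-fold lower, and the remaining 6 were not called.

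**Figure D3:**
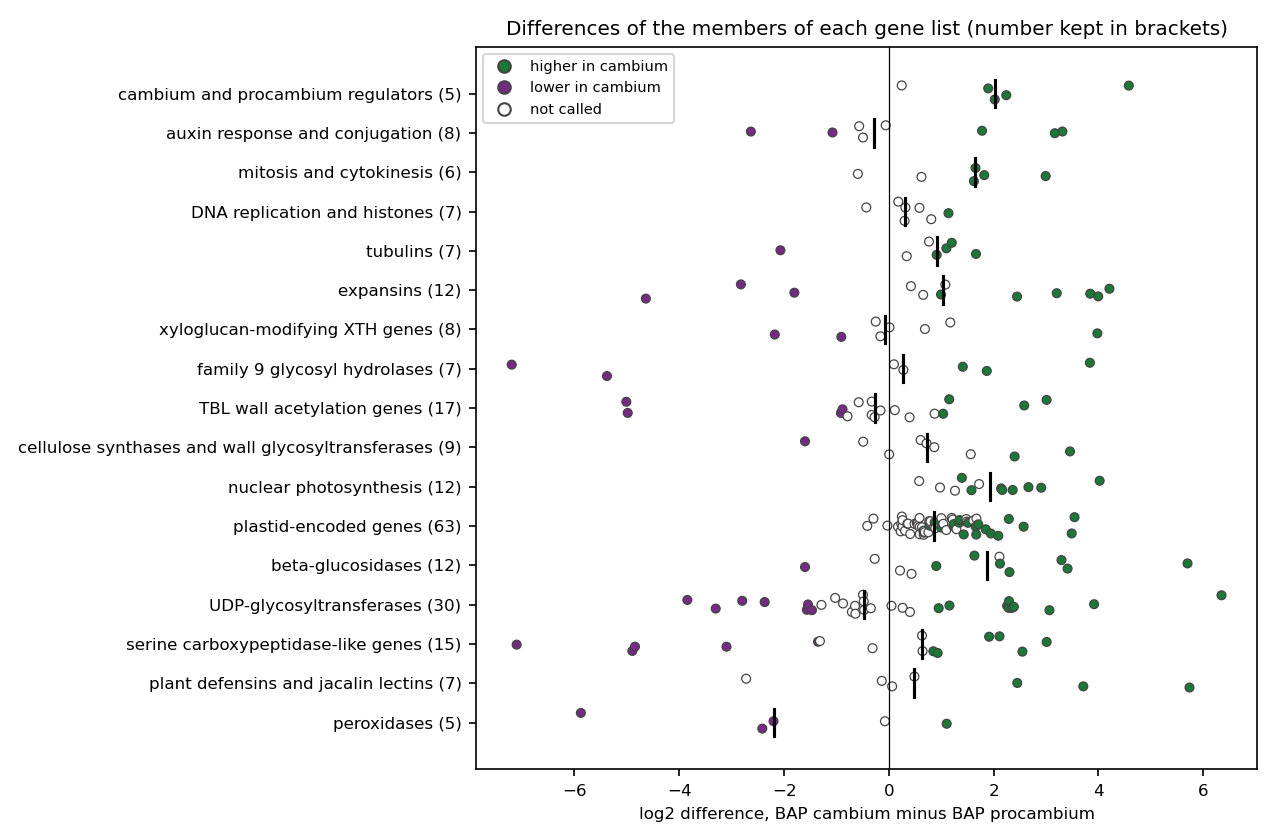
Log2 difference of BAP cambium minus BAP procambium for every tested member of 17 gene lists, with the number of members in brackets; green and purple points are called higher or lower in cambium, white points are not called, and black ticks are list medians. Expansins, family 9 glycosyl hydrolases, TBL genes, UDP-glycosyltransferases and serine carboxypeptidase-like genes hold members far to both sides, while no photosynthesis gene is called lower.

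Photosynthesis genes stood higher in cambium or were not called. Of 12 nuclear genes 8 were higher and none lower, against 16.3% and 14.7% of all probe sets. The list median was 1.93, against a median of 0.08 over all probe sets. PSAE-1 (AT4G28750), a photosystem I subunit, read 7.85, 9.55 and 8.00 in cambium and 5.52, 4.24 and 3.57 in procambium, 16.3-fold higher (adjusted p = 0.000128). The antenna protein LHCB4.1 (AT5G01530) was 6.34-fold higher at 9.28, 10.91 and 9.45 against 7.44, 6.72 and 7.49, and PSBW of photosystem II was 4.42-fold higher. These were the 3 calls that held without any 1 array. Only 3 of the 12 genes were called without cambium replicate 2, the brightest cambium array for each of them, 4 without procambium replicate 1, and 3 with no filter on dim probe sets.

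Plastid-encoded genes were more even. Of 63 tested, 60 had a positive difference, with a median of 0.86. Calls numbered 19, all higher in cambium, and 5 of them held without any 1 array. Their share called, 30.2%, stood beside 31% of all probe sets called in either direction and 16.3% called higher. Procambium replicate 1 was the lowest of the 6 arrays for 41 of the 63 genes. The mean signal over the 63 genes was 9.74, 9.86 and 8.34 on the cambium arrays and 7.69, 8.57 and 8.64 on the procambium arrays, so that cambium replicate 3 lay below procambium replicates 2 and 3. The count of calls was 6 without procambium replicate 1, 9 without cambium replicate 1, 7 without cambium replicate 2 and 33 without cambium replicate 3. It was 9 with no filter on dim probe sets. psbA, the photosystem II reaction-centre protein, read 11.04, 10.40 and 9.11 in cambium and 5.23, 7.65 and 7.05 in procambium, 11.7-fold higher, and psaB of photosystem I was 3.60-fold higher. The other calls that held were those of psbK, ndhJ and atpE. Without BAP, 57 of the 63 genes were called higher in cambium, against 18.4% of all probe sets, with a median difference of 2.63.

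Enzymes that add or remove sugars lay on both sides. Of 12 beta-glucosidases 7 were higher in cambium and 1 lower, against 16.3% and 14.7% of all probe sets. BGLU47 (AT4G21760) read 7.96, 8.68 and 7.33 in cambium and 2.54, 2.17 and 2.17 in procambium. BGLU44 was 4.35-fold higher and BGLU15 3.10-fold higher, and BGLU28, next to BGLU15 on its chromosome, was at least 1.51-fold higher with 3.81, 6.59 and 6.39 against 2.21, 2.18 and 2.17. BGLU45 and BGLU46 are also neighbours. BGLU45 was at least 1.39-fold higher, and the call of BGLU46 (1.87-fold) was lost without replicate 2 or 3 of either zone (adjusted p 0.0681 to 0.147). BGLU16 was the member lower in cambium, 3.03-fold, and PYK10, the beta-glucosidase of the ER body, differed by 0.21 (adjusted p = 0.336).

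Of 30 UDP-glycosyltransferases, 10 were higher in cambium and 7 lower, against 16.3% and 14.7% of all probe sets. UGT78D2, a flavonoid 3-O-glucosyltransferase, was 4.78-fold higher, in the same direction as UGT78D1. UGT88A1 was at least 2.43-fold higher, and UGT71C3 8.37-fold higher at 8.36, 8.39 and 7.92 against 4.98, 5.44 and 5.05. Its direct neighbour UGT71C4 read 9.16, 8.52 and 8.72 against 7.74, 8.78 and 9.09, with overlapping groups and a difference of 0.26 (adjusted p = 0.633). UGT76B1 (AT3G11340), which glucosylates salicylate and isoleucate, was lower in cambium at 5.96, 4.90 and 7.39 against 9.96, 9.82 and 10.01. UGT76D1 was at least 3.89-fold lower and UGT73D1 at least 3.24-fold lower. The counts were 7 higher and 9 lower without procambium replicate 1.

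Serine carboxypeptidase-like genes, a family of proteases and acyltransferases, had 6 of 15 members higher and 5 lower, against 16.3% and 14.7% of all probe sets. scpl25 (AT3G02110) was 8.06-fold higher at 8.13, 7.90 and 8.06 against 4.99, 5.03 and 5.02, and scpl35 was 4.32-fold higher. SCPL34 (AT5G23210) read 3.08, 3.71 and 4.08 in cambium against 10.29, 10.81 and 11.08 in procambium. Toward procambium, scpl40 differed at least 5.79-fold and scpl20 8.57-fold. scpl28 read 4.59, 8.11 and 8.91 in procambium, so procambium replicate 1 stood apart from the others, and 2.48, 2.25 and 2.33 in cambium. Its call held without that array and without every other. The neighbouring gene scpl26 differed by 0.64 (adjusted p = 0.0587).

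Glucosinolate genes were represented by a pair, both higher in cambium. BCAT4 (AT3G19710), which starts methionine chain elongation, read 6.10, 9.93 and 6.06 in cambium and 2.17 on every procambium array, at least 5.14-fold higher, with cambium replicate 2 far above its group. UGT74B1, which adds the glucose to the glucosinolate core, was 4.87-fold higher. Defensins and jacalin lectins had 3 of 7 members higher and none lower, against 16.3% and 14.7% of all probe sets. The defensin-like gene PDF2.1 (AT2G02120) read 11.30, 12.01 and 10.63 against 6.91, 4.16 and 5.65, and its near neighbour LCR69 was 5.47-fold higher, whereas the adjoining LCR68 was level at 0.06 (adjusted p = 0.861). The jacalin lectin JAL22 (AT2G39310) read 13.35, 13.49 and 13.06 against 9.59, 9.67 and 9.50. JAL33 and JAL34 were bright in both zones and differed by 0.49 and -0.13, neither of them called.

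Peroxidases had 1 of 5 members higher in cambium, PRXR1 (2.15-fold), and 3 lower, against 16.3% and 14.7% of all probe sets. Among the lower ones, Prx37 read 5.16, 4.41 and 5.35 against 8.34, 6.52 and 7.30. Among the sugar transporters, SWEET11, which exports sucrose, was at least 2.00-fold lower in cambium at 2.50, 2.38 and 3.04 against 5.96, 5.29 and 6.75. The vacuolar fructose transporter SWEET16 was 2.62-fold lower, and its relative SWEET17 was 2.06-fold higher with a call lost without cambium or procambium replicate 2 (adjusted p = 0.0803 and 0.0657). Of 4 WRKY transcription factors none was higher in cambium. WRKY6, a factor of senescence and defence, was 3.78-fold lower at 7.88, 9.11 and 8.40 against 9.71, 11.02 and 10.42. WRKY53 was 2.07-fold lower, a call lost without cambium replicate 3 (adjusted p = 0.0565).

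Markers of other cell types were few among the probe sets assigned to 1 gene, and they differed in level and direction. The root apical meristem list of 9 markers had 2 tested. UPB1 was lower in cambium, as described above, and BBM was not called, with means of 2.62 in cambium and 2.65 in procambium. From 7 pericycle and lateral root markers, LBD16 alone was tested and was lower in cambium, as described above. Of 7 root cap markers 1 was tested, the locus AT1G65570, between 2.47 and 3.07 on the cambium arrays and between 10.34 and 11.50 on the procambium arrays, at least 61.7-fold lower. Its mean was 3.35 in untreated procambium and 14.01 in the ARR5::GFP cells, which the labels describe as procambium and lateral root cap. Of 9 epidermis and root hair markers 1 was tested, the root hair expansin EXPA7, which read 2.39, 5.78 and 7.37 in procambium and 2.35, 2.35 and 2.37 in cambium. The call of EXPA7 held without procambium replicate 1 only, and without each other array its adjusted p was 0.0609 to 0.133. Of 13 phloem markers 1 was tested, OPS, at 4.34, 5.28 and 5.37 in cambium and 2.35, 3.86 and 2.99 in procambium. It was higher by a fitted 1.93 (adjusted p = 0.0176), and the call was lost without cambium replicate 2 or 3 or procambium replicate 1 (adjusted p 0.0649 to 0.0761). Of 17 xylem markers 1 was tested, the xylan gene GUT2, with a difference of 1.56 (adjusted p = 0.0803).

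The levels of the procambium-side genes in the ARR5::GFP cells, from 6-day-old seedlings, were set beside those in the other sorts, from 8-day-old seedlings. For the 480 lower calls beyond 3 log2 units, the median of the group means was 3.28 in BAP cambium, 4.84 in BAP transition cambium, 8.26 in BAP procambium, 6.84 in untreated procambium and 9.28 in ARR5::GFP cells. The ARR5::GFP mean lay nearer to BAP procambium than to BAP cambium for 430 of them (89.6%), and the untreated procambium mean for 272 (56.7%). For the 412 higher calls beyond 3 units the same shares were 94.9% and 95.1%. These shares were not computed over all probe sets. Across the tested probe sets, the ARR5::GFP arrays correlated at a mean r of 0.834 with BAP procambium and 0.618 with BAP cambium. The untreated procambium arrays did so at 0.853 and 0.724. All 12 named lower genes had an ARR5::GFP mean between 8.10 and 13.11. The part of root cap or root hair cells in the differences of procambium-side genes was not tested.

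**Figure D4:**
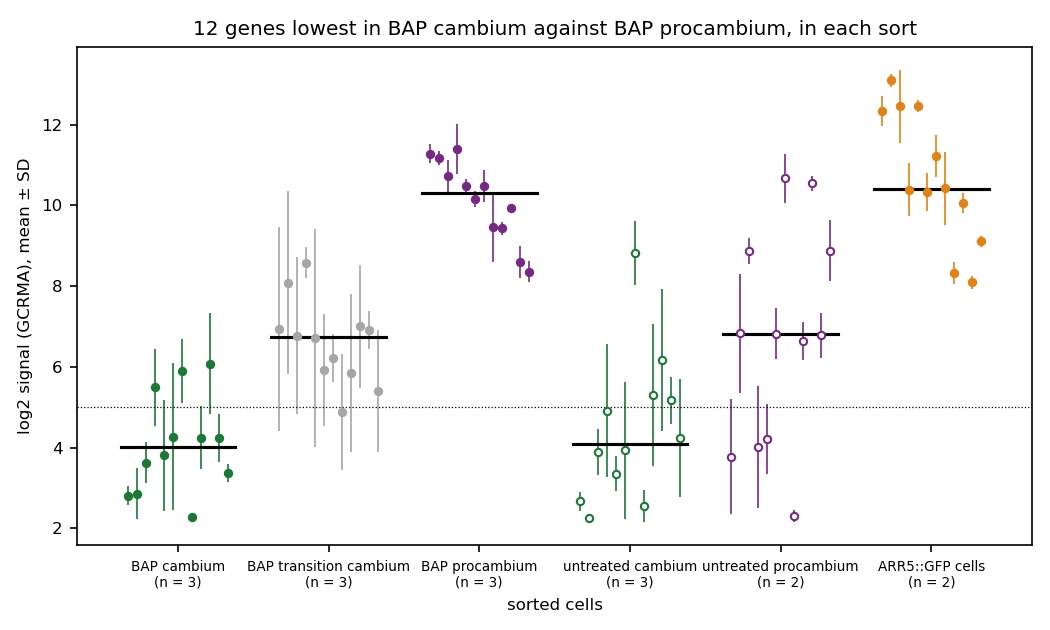
Mean log2 signal with SD of the 12 named genes lower in BAP cambium, in each kind of sorted cells, with the genes in the same order from left to right within each sort; black bars are medians over the 12 genes and the dotted line is the level of 5. The genes are bright in BAP procambium and in ARR5::GFP cells, and spread from 2.31 to 10.67 in untreated procambium.

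The same zone comparison without BAP, on 3 cambium and 2 procambium arrays that share no array with the treated ones, called 4720 of 13202 probe sets (35.8%, with 18.4% higher and 17.4% lower in cambium), and centring each array on its median changed its split from 2424 higher and 2296 lower to 2007 and 2855. Of the probe sets higher in BAP cambium, 1195 (55.5%) were called in the same direction without BAP, and of those lower, 1049 (54.0%). Calls in the opposite direction without BAP numbered 38 among the higher and 52 among the lower probe sets. The difference between the zone differences was itself tested as an interaction, and 1184 probe sets (8.97%) were called, 507 (3.84% of all) toward a higher and 677 (5.13%) toward a lower zone difference with BAP, among them all of these and 208 higher and 258 lower calls under BAP that were not called without it. With each array centred on its median the interaction split was 619 higher and 579 lower. The interaction count fell to 741 without BAP cambium replicate 1 and to 789 without BAP procambium replicate 3.

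Of the named genes, NANA had a zone difference of 5.13 with BAP and -0.93 without, where cambium and procambium stood at means of 7.45 and 8.38 (interaction 6.06, SE 0.68, adjusted p = 0.000144). BGLU47 differed by 5.70 with BAP and by 1.13 without, where no cambium or procambium array reached 5. UGT84A4, which glucosylates phenolic acids such as sinapate, read 6.43, 6.44 and 6.18 in BAP cambium and 2.70, 4.94 and 4.26 in BAP procambium, while without BAP its mean was 2.59 in cambium and 5.62 in procambium. AUR1 was also turned: 1.62 with BAP and -1.63 without (interaction adjusted p = 0.0033). The subtilase gene SBTI1.1 differed by 2.45 and -1.91, and TBL37 by 1.04 and -1.91. All of these interaction calls held without any 1 of the 11 arrays.

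In the opposite direction, hemb2, PPDK, GH9B6, GH9C1 and the locus AT1G65570 were called lower in cambium with BAP and were not called without it, where their differences were -1.10, 0.90, 0.24, -0.62 and -0.38. The interactions were -7.37, -6.81, -7.44, -4.76 and -7.83, and each held without any 1 array. Without BAP, hemb2, GH9B6 and AT1G65570 stayed below 5 on every cambium and procambium array. PPDK reached 5 on 1 untreated array of each zone. Their untreated differences are thus mostly between values below the level that counts as measured. The terpene synthase TPS-CIN, which makes the monoterpene 1,8-cineole, had a mean of 8.66 in untreated cambium and 2.20 in untreated procambium, and under BAP it stayed below 5 on all 6 arrays. The glutaredoxin gene ROXY1 was higher in untreated cambium by 2.03 and lower in BAP cambium by 1.70. No cambium or procambium array reached 5 in either treatment, so both differences lie below the level that counts as measured. Its call under BAP was lost without BAP cambium replicate 1 or 3 or BAP procambium replicate 2 or 3 (limma adjusted p 0.0505 to 0.099). RTE1, a regulator of the ethylene receptor ETR1, was higher in untreated cambium by 2.06 and lower under BAP, at 6.67, 7.37 and 7.58 against 9.20, 8.02 and 8.91. That lower call was lost without cambium replicate 1 or procambium replicate 1 (adjusted p = 0.0656 and 0.059). WRKY53 also turned, from 1.69 without BAP to -1.05 with it (interaction adjusted p = 0.00182).

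**Figure D5:**
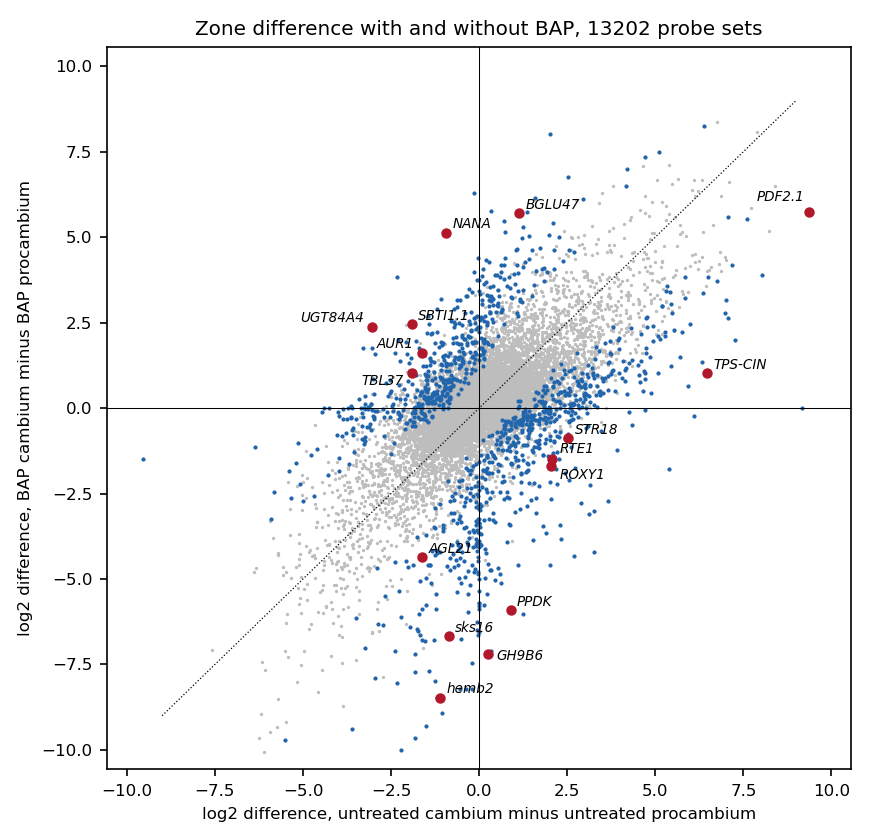
Zone difference (cambium minus procambium, log2) without BAP on the horizontal axis and with BAP on the vertical axis, for all tested probe sets in grey and those with a called interaction in blue; red points are named genes and the dotted line marks equal differences. NANA, BGLU47, UGT84A4, SBTI1.1, AUR1 and TBL37 lie above the line, and hemb2, GH9B6, PPDK and sks16 far below it.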

How the data were processed

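The sorted root cells were measured on Affymetrix ATH1 arrays. The authors deposited log2 values; the submitters' processing notes name GCRMA as the tool, and its version, and whether all arrays entered it together, are not given. The deposited values were used as they stood, and no depth applies to arrays: their number limits the precision.

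Of 22746 probe sets, 13513 are paired with 1 gene by the platform annotation, 503 with several and 8730 are not listed in it and stay unnamed. Of the 13513, 13436 matched the reference gene table (assembly TAIR10.1), used for names and gene order alone. Genes with more than 1 probe set are represented by the brightest on average. Array groups came from the titles.

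With limma 3.58.1 in R 4.3.3, 6 group means were fitted over 16 ARR15::GFP arrays (lmFit, eBayes with an intensity trend, 10 residual degrees of freedom) after keeping probe sets at log2 5 or more on at least 2 arrays. The ARR5::GFP arrays stayed outside the fit. Named genes are the 12 with the largest bounded difference in each direction, up to 5 per direction that carry a locus code and an older name, and 5 per direction with the largest interaction, all with arrays that do not overlap, besides list members. Members and lists were chosen with earlier results of these data known. The code was tested on simulated data. Deviations of same-numbered BAP cambium and BAP procambium arrays from their group means correlated at 0.0793, -0.0768 and 0.0586. Those of differently numbered arrays correlated at -0.136 to 0.142. With 3 arrays per group these values cannot show whether same-numbered arrays shared roots, and the main fit used no pairing. Alternatives were another filter or none, median centring, quantile normalization, array weights, no trend, the compared arrays alone, a replicate block and each array left out. P-values set each difference against the spread between pooled samples within groups, estimated over all 6 groups of the 16 ARR15::GFP arrays.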

Additional observations from a re-analysis of the deposited data

Results flagged for a closer look

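For 58 named genes or list members the zone difference (cambium minus procambium, log2) was itself different with and without BAP by limma's interaction test. Of these, 23 were more positive with BAP and 35 more negative. Over all 13202 probe sets 8.97% were called, 3.84% more positive and 5.13% more negative. The 58 include the 5 genes per direction named for the largest interaction, whose calls the naming rule required. Values below are the interaction, BAP minus untreated. Among genes of metabolism and proteolysis it was 6.06 for NANA, 5.41 for UGT84A4, 4.57 for BGLU47, 4.36 for SBTI1.1, 3.41 for BGLU28, 2.43 for scpl35, 2.10 for SCPL45, 2.10 for CCR2 and 1.89 for BGLU15. Among wall, tubulin and signalling genes it was 3.25 for AUR1, 2.94 for TBL37, 2.34 for ATMPK13, 2.11 for GH9B13, 2.05 for XTH32 and 1.55 for TUB7. For 8 list members not called between the zones with BAP it was positive: 4.28 for XTH21, 3.68 for GH9B5, 3.40 for UGT72E3, 2.65 for TBL34, 2.43 for UGT71B1, 2.26 for TBL30, 2.15 for CHIL and 2.08 for TBL38.

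On the negative side the widest values were -7.83 for AT1G65570, -7.44 for GH9B6, -7.37 for hemb2, -6.81 for PPDK, -5.81 for sks16, -5.43 for TPS-CIN, -4.81 for scpl28 and -4.76 for GH9C1. Next came -3.73 for ROXY1, -3.62 for PDF2.1, -3.62 for PRX71 (AT5G64120), -3.56 for RTE1, -3.40 for STR18, -3.16 for BGLU44 and -3.05 for JAL22. The remaining values were -2.75 for AGL21, -2.73 for WRKY53, -2.66 for GH9B8, -2.26 for LBD16, -2.23 for UGT87A2, -1.92 for RR16, -1.67 for CLE41, -1.66 for LKR/SDH (AT4G33150) and -1.56 for UGT71B5. Among plastid-encoded genes it was -2.98 for petG, -2.16 for psbM, -2.15 for ndhI, -2.06 for psbI, -1.43 for ndhC and -1.33 for rpoA. It was also negative for JAL33 (-3.38), XTH20 (-3.002), BAT1 (-2.88), UGT76C2 (-1.51) and PYK10 (-0.89), none of them called between the zones with BAP.

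The interaction held without any 1 of the 11 arrays for 29 genes. AGL21 lost it without untreated procambium replicate 1 (adjusted p = 0.0523), BGLU28 and scpl28 without either untreated procambium array (adjusted p 0.0507 to 0.0635), and sks16 without BAP cambium replicate 2, BAP procambium replicate 3 or untreated procambium replicate 1 (0.0513 to 0.0955). JAL22 and RR16 lost it without 4 of the 11 arrays, UGT72E3 and XTH20 without 3, BAT1 without 2, petG without untreated procambium replicate 2 (adjusted p = 0.0529) and psbM without untreated procambium replicate 1 (adjusted p = 0.102). For ATMPK13, CCR2, CLE41, LBD16, PRX71, LKR/SDH, PYK10, TBL30, TBL34, TUB7, UGT71B1, UGT71B5, UGT76C2, UGT87A2, XTH32, ndhC, ndhI and rpoA it was lost without 6 to 10 of them, with adjusted p up to 0.184 for CLE41.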

How the results depend on the processing

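The count of probe sets called between BAP cambium and BAP procambium stayed between 3592 and 5787 under the alternatives (4099 as reported) and between 3067 and 3738 with 1 array left out. Without BAP, the count of 4720 became 2771 when only the 5 arrays compared were fitted, a fit with fewer samples, and lay between 3448 and 4587 with 1 array left out. The interaction count of 1184 lay between 741 and 1156 with 1 array left out. No direction reversed among the named genes. Of 804 fits of 134 called genes with 1 array left out, 105 lost the call, and 19 of the genes lost it with no filter on dim probe sets. Median centring moved the median zone difference without BAP from -0.01 to -0.19. With the replicate number as a replicate block the counts were 3812 with BAP, 4211 without and 889 for the interaction; 6 of the 134 genes lost the call. Probe sets below log2 5 in a zone give bounds, and most cell type markers had no probe set that could be named.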

Other observations

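The probe sets with the widest difference in each direction include genes known here by locus code alone, and these 4 were chosen after their values were seen. AT5G44400 read 11.76, 12.15 and 11.83 in BAP cambium and 3.35, 4.33 and 5.62 in BAP procambium, a fitted difference of 7.48 (SE 0.44, limma adjusted p = 4.9e-08). AT4G14060 read 11.52, 11.72 and 11.51 against 7.30, 4.29 and 3.67. On the other side, AT5G54370 read 2.43, 2.43 and 7.61 in BAP cambium and 14.15, 14.19 and 14.31 in BAP procambium, and AT1G52060 read 2.83, 2.82 and 8.28 against 14.14, 14.15 and 14.58. For this pair of genes BAP cambium replicate 3 lay more than the whole procambium spread above the other cambium arrays and still below every procambium array. In the ARR5::GFP cells their means were 14.48 and 14.95, and in untreated procambium 9.02 and 9.14. All 4 calls held without any 1 of the 6 arrays.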
